A study of Mus musculus with 11 samples.

Results

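The replication-dependent histone genes of the mouse were followed in neonatal hearts under right ventricular pressure overload. They were taken as all genes of the table whose name starts with Hist1h, Hist2h, Hist3h or Hist4h, leaving out names that end in -ps, which gave 70 of 50600 genes. Of these, 6 encode histone H1, 20 H2A, 19 H2B, 12 H3 and 13 H4. The rule used names alone and no measured value. Only 15 of the 70 had at least 10 counts in 2 or more of the 11 libraries, and these same 15 passed the filter on low counts and were tested.

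The RNA came from hearts of C57BL/6 mice. The paper writes the strain name with the substrain letter J and gives the tissue as the ventricles. Pups underwent pulmonary artery banding (PAB), which narrows the vessel that leaves the right ventricle, or a sham operation without the band on the day of birth. The 4 groups were sham hearts at postnatal day 3 (P3 sham, 3 libraries), PAB hearts at P3 (3 libraries), sham hearts at P7 (3 libraries) and PAB hearts at P7 (2 libraries). No genotype other than the strain and no drug was given, and every mouse had been cooled and had its chest opened. The sources used here do not say how many hearts went into a library, so p-values measure the spread between these libraries, which may be partly technical. RNA of the whole ventricle mixes cell types, and fewer cells of a type cannot be told apart from less RNA per cell.

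Histone proteins package DNA into nucleosomes, with H2A, H2B, H3 and H4 in the core and H1 bound to the linker. The genes studied here lie in clusters, mostly lack introns and are transcribed strongly while DNA is copied in S phase. Their messenger RNAs usually end in a short stem-loop that binds the protein SLBP in place of a poly(A) tail, whereas a few members can also be read through to a poly(A) site further on and are then kept in cells that do not divide. Heart muscle cells leave the cell cycle in the first days after birth, so that both kinds of RNA are of interest in this tissue.

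The stem-loop is shown because it is the usual end of these RNAs and the members differ in what follows it. It was searched for after the stop codon of the GENCODE M21 transcripts, on GRCm38, as a stem of 6 base pairs that starts with GG and ends with CC around a loop of 4 bases that starts with T. The letters were found in 46 of the 67 members that have a coding transcript with a stop codon, and in 0.864% of the other protein-coding genes. The capitals mark stem and loop, and 5 flanking bases on each side are in lower case, read 5′ to 3′ on the strand of the gene.
Hist1h1c: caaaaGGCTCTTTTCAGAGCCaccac
Hist3h2a: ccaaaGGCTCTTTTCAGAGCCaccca
Hist1h2ag: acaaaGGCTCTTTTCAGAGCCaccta
Hist2h3c1: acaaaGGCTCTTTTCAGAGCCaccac
Hist1h4h: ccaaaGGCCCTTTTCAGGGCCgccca
Hist1h4i: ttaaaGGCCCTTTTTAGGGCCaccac
The form in Hist1h1c was the most common and was shared by 26 members, and the form in Hist1h4h by 7. Neither Hist1h2bc nor Hist2h2be, both described below, held these letters in its transcript. Many of the 21 members without the letters have a model that stops at or near the stop codon, so that no match says only that the letters are not in the annotated transcript.

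Promoter sequence is shown for Hist1h1c and Hist3h2a, the 2 members that passed the test of a larger difference between PAB and sham hearts at P7 than at P3, a test that 13.3% of all tested genes passed in this direction. The letters are the 250 bases before the transcription start in RefSeq, on GRCm38.p6 and the plus strand, at chr13:23738557-23738806 for Hist1h1c and chr11:58954435-58954684 for Hist3h2a. Capitals mark 4 motifs searched for on both strands, which are the CCAAT box, the letters TATAA of the TATA box, the octamer ATTTGCAT and an H1 box with the letters AAACACA. A match on the minus strand reads as the reverse complement.
Hist1h1c: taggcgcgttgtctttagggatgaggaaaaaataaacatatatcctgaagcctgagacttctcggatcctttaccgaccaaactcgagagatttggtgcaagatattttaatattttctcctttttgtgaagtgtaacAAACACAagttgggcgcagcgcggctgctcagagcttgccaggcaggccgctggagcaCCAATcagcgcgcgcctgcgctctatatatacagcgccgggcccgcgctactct
Hist3h2a: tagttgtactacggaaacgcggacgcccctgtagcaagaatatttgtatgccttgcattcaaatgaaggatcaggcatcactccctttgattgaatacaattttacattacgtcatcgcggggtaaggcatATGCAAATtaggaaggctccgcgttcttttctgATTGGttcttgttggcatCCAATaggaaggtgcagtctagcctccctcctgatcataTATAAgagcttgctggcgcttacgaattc
The Hist1h1c promoter held the H1 box 112 bases and CCAAT 54 bases before the start. The Hist3h2a promoter held the octamer on the minus strand, CCAAT on each strand and TATAA 29 bases before the start. Only the exact letters TATAA were searched for, so other forms of the TATA box are not marked in either promoter.

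A RefSeq promoter of 300 bases, from 250 before to 50 after the start, was at hand for 62 members. CCAAT was present in 85.5% of them and in 37.9% of all 27025 promoters. It was found in all 6 of H1, all 18 of H2A, all 16 of H2B and all 10 of H3, but in 3 of 12 of H4. TATAA was present in 79% of the members against 25.5% of all promoters. The octamer, a site known from H2B genes, was present in 21% against 1.75%, in 7 promoters of H2A and 6 of H2B and in none of H1, H3 or H4. The H1 box was present in 14.5% of the members and in 7.14% of all promoters, in 5 of the 6 promoters of H1, 2 of H2A and 2 of H2B and in none of H3 or H4. These matches are a description of letters and not of bound sites.

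Of the 31860 counts that fell on members in all libraries together, 42.8% belonged to Hist1h1c, which encodes the linker histone H1.2, and the 3 highest members held 77.9%. Hist1h2bc followed with 7331 counts and Hist3h2a with 3838. At the other end, 5 members had no count in any library, 53 had 1 to 100 counts in all, and 12 had more. The 55 members that were not tested had a median of 13 counts in all and at most 12 in any library. These genes were too low to test at this depth, which ranged from 19274045 to 26820228 counts per library.

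**Figure D1:**
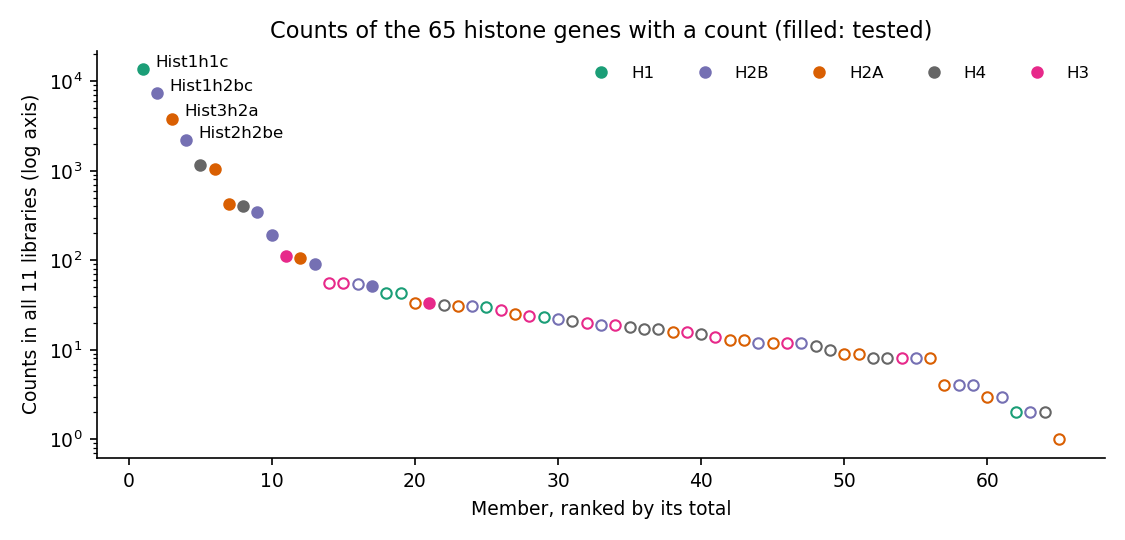
Each point is 1 of the 65 histone genes with a count, ranked on the x axis and with its counts summed over the 11 libraries on a log y axis, coloured by the histone it encodes and filled where the gene was tested. Hist1h1c stands first at 13635 counts and most members lie under 100.

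The transcript ends in the annotation differed between the members that were measured and those that were not. All 4 members with no stem-loop but at least 100 bases after the stop codon were tested, and they held 30.6% of the member counts. Of the 23 with at least 100 bases after the stem-loop, 7 were tested, and this set held 59.2% of the counts. Of the 23 with fewer bases after the stem-loop, 4 were tested, with 9.41% of the counts. None of the 17 with neither was tested, and they held 0.7%. A poly(A) hexamer (AATAAA or ATTAAA) followed the stem-loop or stop codon in 21 members, which held 92.5% of the counts, and in 11 of the 15 tested. Longer models also collect more reads, and the sources used here do not say whether RNA was selected by its poly(A) tail, so the part of each in these counts was not tested.

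Counts were scaled by edgeR's TMM factors and are given as CPM, counts per 1e6 counted reads, as mean ± SD over libraries. Calls come from edgeR's quasi-likelihood test and need both a 1.5-fold difference and an adjusted p no larger than 0.05, after Benjamini-Hochberg adjustment over the 15808 genes tested. In P7 PAB against P7 sham hearts, 4 of the 15 tested members rose and none fell, where 18.2% of all tested genes were called, 9.63% higher and 8.59% lower. The count was 2 higher without P7 PAB replicate 1 (7.29% of all genes), with the trend with gene length removed (6.4%) and with a term for the level of the RNA Xist in each library (7.67%), which is the Xist class described below. The groups did not overlap for 9 members, all of them higher in PAB, where 60.3% of all genes did not overlap, 30.8% higher and 29.6% lower. The median log2 fold change was 0.75 over the 15 members and 0.00 over all genes. It was 0.24 over the same 15 members without P7 PAB replicate 1. With the trend with gene length removed it was 0.49, and 0.30 with a replicate block as well. It was 0.51 over the 6 members that passed the stricter filter and 0.53 with the Xist class as a term. Among the 13 members with a positive value were members of all 5 histones, and the 2 with a negative value were Hist2h2aa2 and Hist2h3c1.

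In P3 PAB against P3 sham hearts no member was called by edgeR, where 0.127% of all genes were, 0.108% higher and 0.019% lower. At an unadjusted p, 3 members passed both thresholds higher (Hist1h2be, Hist1h2bq and Hist2h3c1) and 1 lower (Hist1h2br), where 0.955% of all genes passed higher and 0.993% lower. DESeq2 called none. The groups did not overlap for 1 member, Hist1h2be, which was higher in PAB, against 16.7% of all genes, 8.65% higher and 8.02% lower. The median log2 fold change was 0.23 with 12 of 15 positive, against 0.00 over all genes. It ranged from 0.055 to 0.49 when 1 library was left out, the high without P3 sham replicate 2. Over the other alternatives it ranged from 0.093 to 0.24.

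In P7 against P3 sham hearts, 2 members rose, both of them H2B, and none fell, where 11.3% of all genes were called, 5.62% higher and 5.73% lower. With libraries scaled by their total count the split turned to 0 higher and 2 lower, and this scaling moved the median of all genes to -0.31. The groups did not overlap for 4 members, 3 higher and 1 lower, where 45.3% of all genes did not, 22.4% higher and 22.9% lower. The median over the members was -0.23. It changed sign to 0.19 over the 6 members that passed the stricter filter, 0.18 with the Xist class as a term and 0.09 without P3 sham replicate 2. It was 0.00 without P7 sham replicate 2 and -0.54 with total counts. In P7 against P3 PAB hearts, 1 member was called higher and 1 lower, where 17.7% of all genes were called, 9.5% higher and 8.2% lower. The member called lower, Hist2h3c1, passed the filter only through P3 PAB libraries. The groups did not overlap for 5 members, all higher, against 62.8% of all genes, 32% higher and 30.7% lower. The comparisons share control libraries and are not independent of each other.

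**Figure D2:**
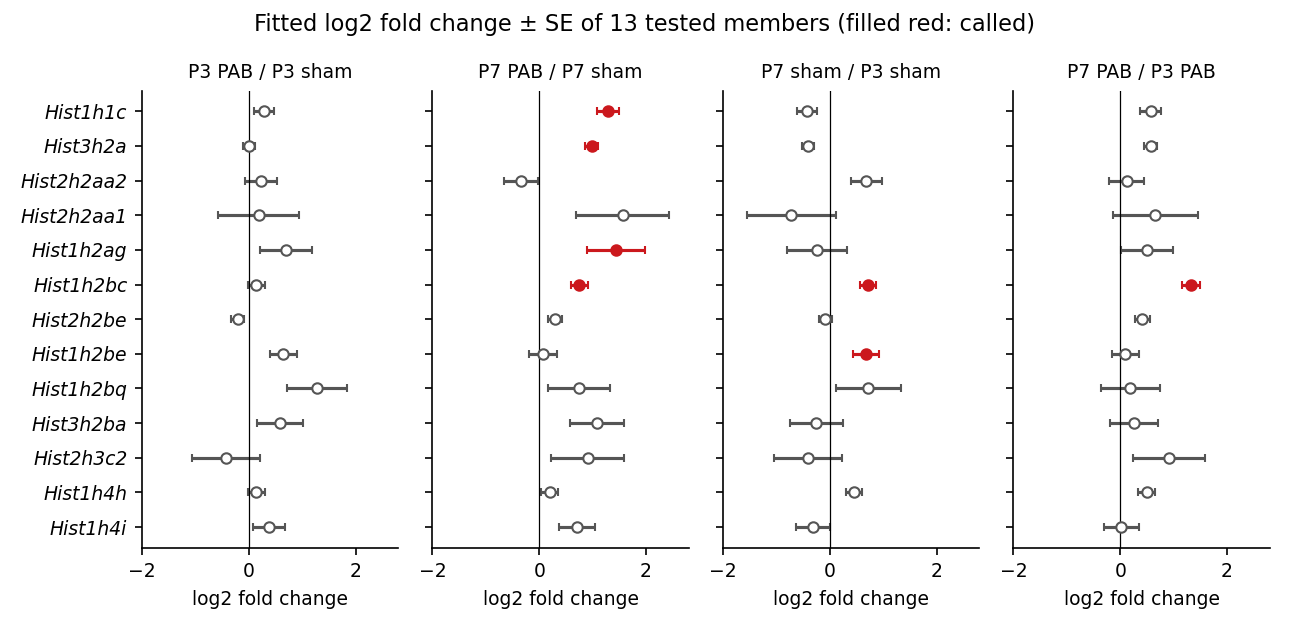
Each panel shows 1 comparison, with the fitted log2 fold change on the x axis, the SE as the bar and 13 tested members in rows, filled in red where called. Hist2h3c1 and Hist1h2br, which had no count in several libraries, are left out. The called members of P7 PAB lie between 0.75 and 1.43, and no member is red at P3.

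Hist1h1c (chr13:23738808-23740367, plus strand, 1 exon) was the one H1 gene with enough reads to test. Its level was 45.9, 59.7 and 37.0 CPM in the P3 sham libraries and 61.4, 71.2 and 42.0 CPM in the P3 PAB libraries. It was 41.3, 32.1 and 32.6 CPM in P7 sham and 97.5 and 75.0 CPM in P7 PAB hearts. Both P7 PAB libraries stood above every other library, while the P3 groups overlapped. The level was 35.3 ± 5.20 CPM (SD, n = 3) in P7 sham and 86.3 ± 15.9 CPM (SD, n = 2) in P7 PAB hearts. Hist1h1c rose 2.44-fold in P7 PAB (log2 1.29, SE 0.20, adjusted p 1.4e-04 by edgeR's quasi-likelihood test). Over the alternatives this log2 value ranged from 0.83 to 1.31, with adjusted p of at most 0.028 by edgeR or DESeq2. At P3 its log2 difference between PAB and sham was 0.29 (SE 0.18, adjusted p 0.74), and between P7 and P3 sham hearts it was -0.43 (adjusted p 0.09). With total counts the latter was -0.74 and called (adjusted p 0.0029, edgeR), where the median of all genes was -0.31. In PAB hearts Hist1h1c was 0.57 higher at P7 than at P3 with an adjusted p of 0.031, under the fold threshold. This value passed both thresholds without P3 PAB replicate 2 (0.74) or P7 PAB replicate 2 (0.75), and it was 0.36 without P3 PAB replicate 3 (adjusted p 0.13), 0.37 without P7 PAB replicate 1 (adjusted p 0.29), 0.31 with total counts (adjusted p 0.20) and 0.27 with the length trend removed (adjusted p 0.26), or 0.16 with a replicate block as well (adjusted p 0.40). Its model runs 840 bases past the stem-loop, and 5.07% of its 100-base windows occur in another gene.

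The other 5 H1 genes were Hist1h1a, Hist1h1b, Hist1h1d, Hist1h1e and Hist1h1t. None of them had more than 9 counts in a library, against 661 to 2233 for Hist1h1c. H1f0, the linker histone of cells that have left the cycle and no member of the clusters, was read at 3746 to 6984 counts.

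**Figure D3:**
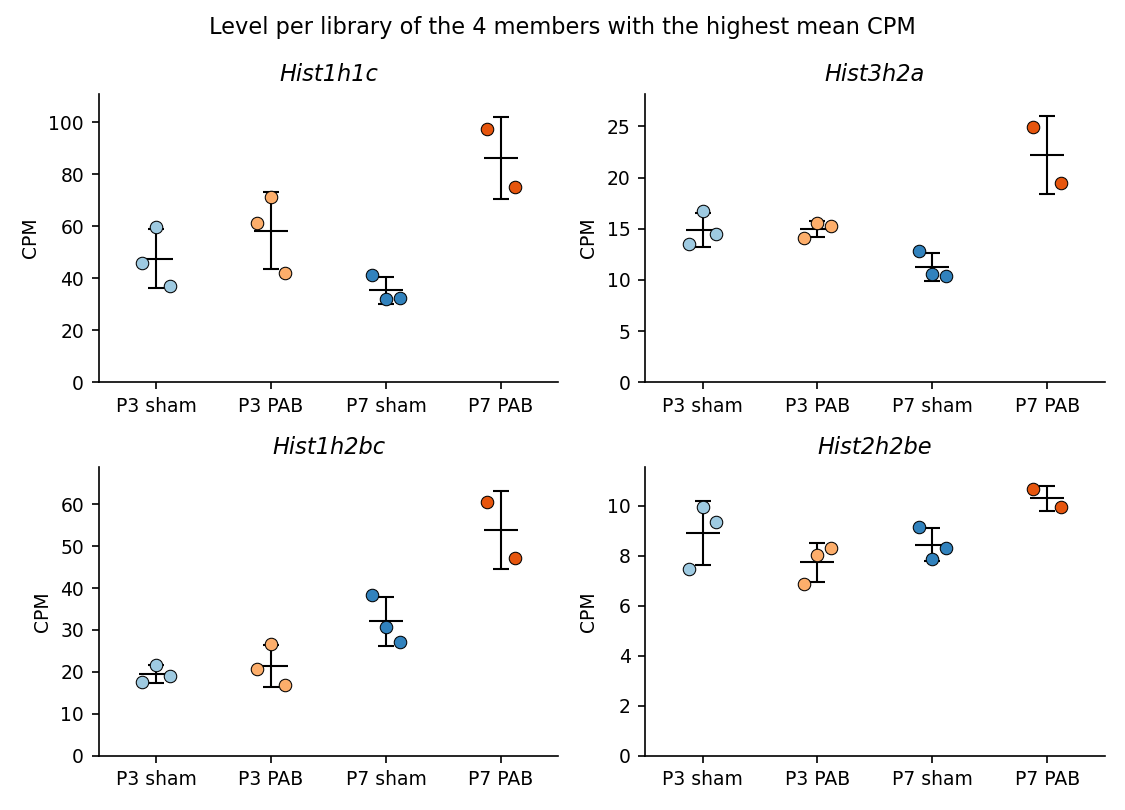
CPM per library (points) on a y axis that starts at 0, with the mean (horizontal bar) and SD (error bar), for Hist1h1c, Hist3h2a, Hist1h2bc and Hist2h2be in the 4 groups. Both P7 PAB libraries lie above all others for each gene, and Hist1h2bc also stands higher in P7 sham than in P3 sham hearts.

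Among the H2A genes, Hist3h2a (chr11:58954685-58956830, plus strand, 1 exon) gave the smallest adjusted p of any member in P7 PAB against P7 sham hearts. It stood at 13.5, 16.7 and 14.5 CPM in P3 sham, 14.1, 15.5 and 15.3 CPM in P3 PAB, 12.9, 10.6 and 10.4 CPM in P7 sham and 24.9 and 19.5 CPM in P7 PAB hearts. The P7 PAB libraries were the highest of all and the P7 sham libraries the lowest. Hist3h2a rose 1.98-fold in P7 PAB against P7 sham hearts (log2 0.98, SE 0.13, adjusted p 2.6e-05, edgeR). At P3 the difference was 0.00 (SE 0.11). With age it fell by 0.41 on the log2 scale in sham hearts (adjusted p 0.015), which passes on p and not on fold. With total counts this difference was -0.72 and called (adjusted p 8e-05, edgeR), where the median of all genes was -0.31. In PAB hearts Hist3h2a was 0.57 higher at P7 (adjusted p 0.0016), again under the fold threshold. The latter value passed both thresholds without P3 PAB replicate 2 (0.60) or P7 PAB replicate 2 (0.74), and it was 0.38 without P7 PAB replicate 1 (adjusted p 0.054), 0.32 with total counts and 0.36 with the length trend removed. Its last part overlaps Trim17 on the same strand, which had 3 to 14 counts per library against 218 to 571 for Hist3h2a.

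Hist1h2ag had few reads, with 3, 11 and 8 counts in sham and 12, 15 and 9 in PAB libraries at P3, and 5, 2 and 10 in sham and 20 and 11 in PAB libraries at P7. The P7 groups touch closely, with 10 counts in a P7 sham and 11 in a P7 PAB library. Its log2 difference of 1.43 in P7 PAB passed (SE 0.54, adjusted p 0.042, edgeR). It did not pass with DESeq2 (adjusted p 0.11), the length trend removed (0.17) or a replicate block (0.058). With the Xist class described below as a term it turned to -0.14 (adjusted p 0.93). Of the windows of Hist1h2ag, 76.2% occur in other H2A genes such as Hist1h2ao and Hist1h2ap. Its adjusted p was 0.31 with P7 PAB replicate 1 left out, 0.14 with P7 sham replicate 2 left out, 0.077 with P7 sham replicate 1 left out and 0.053 with P3 PAB replicate 1 left out.

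Hist2h2aa1 and Hist2h2aa2 lie in opposite directions on chromosome 3 and all of their windows occur in another gene, among them genes that overlap them. Of the windows of Hist2h2aa2, 100% occur in Hist2h2aa1, and 88.1% the other way round, so that most reads of one copy cannot be told from those of the other. Hist2h2aa1 held 32.7%, 47.3% and 9.89% of the pair's counts in P3 sham and 47.9%, 45.2% and 6.58% in P3 PAB libraries. At P7 it held 27.7%, 8.25% and 6% in sham and 65.1% and 9.23% in PAB libraries. In both groups replicate 3 was lowest at P3 and replicate 1 highest at P7. What same-numbered libraries share was not tested. The split between the copies differed several-fold between libraries of 1 group, and their sum varied less. The sum was 4.72, 5.63 and 4.19 CPM in P3 sham, 4.94, 5.85 and 6.17 CPM in P3 PAB, 7.83, 4.71 and 6.29 CPM in P7 sham and 7.64 and 6.41 CPM in P7 PAB hearts. The sums overlapped between PAB and sham at each age. Fitted singly, Hist2h2aa1 had a log2 difference of 1.56 (SE 0.87) and Hist2h2aa2 of -0.34 (SE 0.32) in P7 PAB, and neither was called. Without P7 PAB replicate 1 both changed sign, to -0.69 and 0.13. Hist2h2aa1 was called at 2.87 without P7 sham replicate 1 (adjusted p 0.033, edgeR), and without P7 PAB replicate 2 the copies were called at 2.38 and -0.99.

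**Figure D4:**
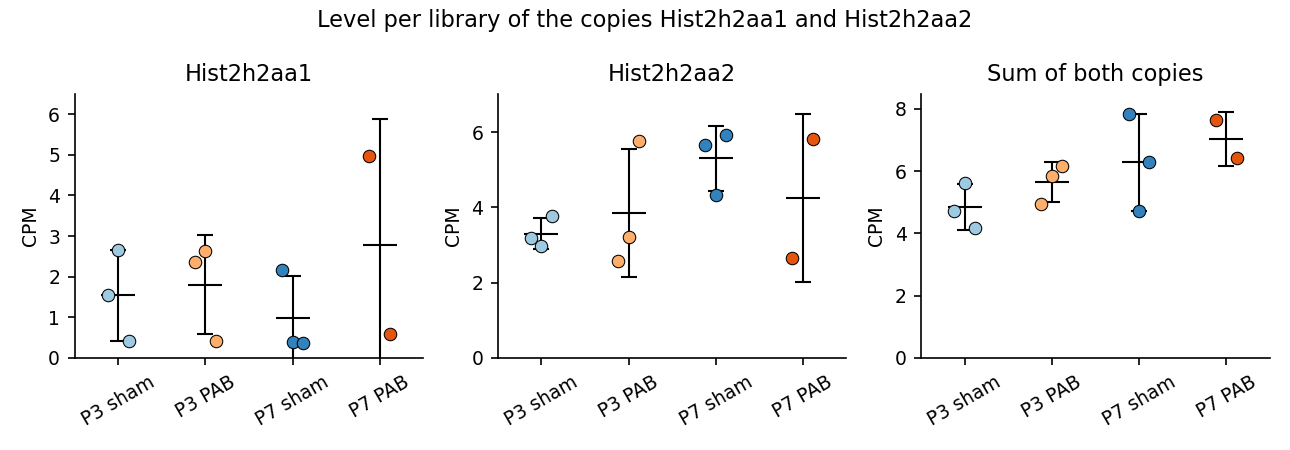
CPM per library (points) with mean and SD in the 4 groups, for Hist2h2aa1, Hist2h2aa2 and their sum, each on a y axis from 0. Single copies spread from 0.377 to 4.98 and from 2.57 to 5.91 CPM, and the sum from 4.19 to 7.83 CPM.

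Among the H2B genes, Hist1h2bc rose with age in sham and in PAB hearts. Hist1h2bc (chr13:23684199-23692908, plus strand, 2 exons) has a spliced transcript with 742 bases after the stop codon, a poly(A) hexamer and no stem-loop letters. It stood at 17.5, 21.7 and 19.1 CPM in P3 sham, 20.8, 26.8 and 16.9 CPM in P3 PAB, 38.4, 30.7 and 27.1 CPM in P7 sham and 60.5 and 47.3 CPM in P7 PAB hearts. Every P7 library was above every P3 library, and both P7 PAB libraries were above the P7 sham libraries. Hist1h2bc rose 1.64-fold from P3 to P7 in sham hearts (log2 0.72, SE 0.16, adjusted p 0.003, edgeR) and 2.52-fold in PAB hearts (log2 1.33, SE 0.17, adjusted p 2.4e-05). In P7 PAB against P7 sham hearts it rose 1.68-fold (log2 0.75, SE 0.17, adjusted p 0.0019), and without P7 PAB replicate 1 this value was 0.56, under the fold threshold. The call was also lost with the length trend removed (0.38, adjusted p 0.055), with a replicate block as well (0.31, adjusted p 0.10) and with the Xist class as a term (0.53, adjusted p 0.23). The rise in sham hearts was under the fold threshold without P7 sham replicate 1 (0.57) and with total counts (0.41). At P3 the difference was 0.14 (SE 0.16).

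Hist1h2be was the other H2B gene called with age in sham hearts. It had 18, 30 and 21 counts in sham and 42, 31 and 36 in PAB libraries at P3, and 29, 39 and 32 in sham and 34 and 36 in PAB libraries at P7. In CPM the P3 sham libraries were the lowest, with no overlap with P3 PAB or P7 sham libraries. Its log2 rise with age of 0.68 (SE 0.25, adjusted p 0.047, edgeR) stood at the threshold, and the adjusted p was 0.12 with DESeq2 and 0.051 to 0.18 when any 1 library but P3 sham replicate 2 was left out. Its difference between PAB and sham was 0.65 at P3 (adjusted p 0.46) and 0.07 at P7 (adjusted p 0.86). Its locus overlaps part of Hist1h1e on the same strand, and reads of the shared part cannot be told apart.

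Hist2h2be (chr3:96221119-96223738, plus strand) has 2192 bases after the stop codon and shares no window with another gene. It stood at 7.47, 9.93 and 9.34 CPM in P3 sham, 6.85, 8.01 and 8.33 CPM in P3 PAB, 9.16, 7.87 and 8.30 CPM in P7 sham and 10.7 and 9.95 CPM in P7 PAB hearts. The P7 PAB libraries were the highest by a small margin, and P3 sham replicate 2 lay just under them. The log2 difference in P7 PAB against P7 sham hearts was 0.29 (SE 0.13, adjusted p 0.091, edgeR). Hist3h2ba, with 3 to 16 counts per library, was 1.09 higher in P7 PAB (SE 0.50, adjusted p 0.091).

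Hist1h2bq and Hist1h2br share 96.9% and 91.5% of their windows, mostly with each other, since 94.8% of the windows of Hist1h2bq occur in Hist1h2br and 86.4% the other way round. Singly they were at 0 in 1 and in 4 libraries. Their summed level was 0.901, 0.723 and 0.598 CPM in P3 sham, 1.25, 1.08 and 0.69 CPM in P3 PAB, 1.03, 0.68 and 0.796 CPM in P7 sham and 1.70 and 1.13 CPM in P7 PAB hearts. The sum did not overlap between P7 PAB and P7 sham libraries and overlapped between the P3 groups. The opposite signs of the single copies at P3, 1.28 for Hist1h2bq and -3.38 for Hist1h2br, came with adjusted p of 0.58 and 0.55.

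Of the 12 H3 genes only Hist2h3c1 and Hist2h3c2 were tested, and no other H3 gene had more than 56 counts in all. All windows of Hist2h3c1 and 61.6% of those of Hist2h3c2 occur in other genes. Hist2h3c1 had 17 and 11 counts in P3 PAB replicates 2 and 3, 5 in P7 sham replicate 3 and 0 in every other library. It was called lower in P7 than in P3 PAB hearts (adjusted p 0.046, edgeR), and its 28 counts in P3 PAB against 0 in P7 PAB make it at least 5.61-fold lower, from a floor of 3 counts over the group. The summed copies Hist2h3c1, Hist2h3c2 and Hist2h3b had 14, 26 and 15 counts in P3 PAB and 24 and 7 in P7 PAB hearts, which overlap. The call was lost with DESeq2 (adjusted p 0.38) and without P3 PAB replicate 2 or 3, P7 PAB replicate 1 or 2 or P7 sham replicate 2.

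Both tested H4 genes encode the core histone H4 and hold a stem-loop, after which the model of Hist1h4h runs on for 46 bases and that of Hist1h4i for 330. Hist1h4h stood at 3.73, 4.34 and 3.27 CPM in P3 sham, 4.15, 4.59 and 3.86 CPM in P3 PAB, 5.52, 4.32 and 5.66 CPM in P7 sham and 6.07 and 5.77 CPM in P7 PAB hearts. The P7 libraries were mostly above the P3 libraries, but P7 sham replicate 2 lay among the P3 libraries. Its log2 difference with age was 0.45 in sham (SE 0.15, adjusted p 0.032, edgeR) and 0.50 in PAB hearts (SE 0.16, adjusted p 0.022), both under the fold threshold, and it was 0.19 in P7 PAB against P7 sham hearts (SE 0.16). With the length trend removed, Hist1h4h changed sign to -0.20 with age in PAB hearts and to -0.26 in P7 PAB against P7 sham hearts. Hist1h4i, with 22 to 64 counts per library, was 0.71 higher in P7 PAB with an adjusted p of 0.10 and did not overlap between the P7 groups.

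Levels of different genes were compared per 1000 bases of exonic length. In P7 sham hearts Hist1h2bc stood at 27.7 and Hist1h1c at 22.7 CPM per 1000 bases, Hist1h4h at 11.0, Hist2h2aa2 at 10.0 and Hist3h2a at 5.26. In P3 sham hearts Hist1h1c stood at 30.5, Hist1h2bc at 16.8, Hist1h4h at 8.04, Hist3h2a at 6.94 and Hist2h2aa2 at 6.26. In P7 PAB hearts Hist1h1c stood at 55.3 and Hist1h2bc at 46.6. These levels rest on exonic lengths of 1560 bases for Hist1h1c and 1156 bases for Hist1h2bc. The RefSeq models of both genes end earlier, as does that of Hist3h2a, whose length here is 2146 bases. No order between the genes is read from these levels.

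Summed over each histone, the H1 genes stood at 48.1 ± 11.6 CPM in sham and 58.8 ± 14.9 CPM in PAB hearts at P3 (SD, n = 3 each). At P7 they stood at 35.9 ± 5.12 CPM in sham (SD, n = 3) and 86.8 ± 16.3 CPM in PAB hearts (SD, n = 2). The H2A sum was 19.8 to 23.5 CPM in the P3 libraries, 15.8 to 21.8 in P7 sham and 27.0 and 34.0 in P7 PAB hearts. The H2B sum was 27.5 to 38.2 CPM at P3, 38.2 to 50.8 in P7 sham and 61.2 and 76.4 in P7 PAB hearts. The H4 sum ranged from 5.94 to 8.22 CPM and the H3 sum from 1.23 to 1.84 CPM over the 4 group means. Hist1h1c, Hist3h2a, Hist1h2bc and Hist1h4h had the most counts of the H1, H2A, H2B and H4 genes. The 55 members that were not tested gave 3.91 ± 1.27 CPM together in sham and 3.99 ± 0.896 CPM in PAB hearts at P3, and 2.78 ± 0.65 CPM in sham (SD, n = 3 each) and 3.56 ± 1.20 CPM in PAB hearts (SD, n = 2) at P7, and these ranges overlapped between PAB and sham at both ages.

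The difference between PAB and sham was larger at P7 than at P3 for 2 members, where the test of this difference (the interaction of age and operation in edgeR) called 25.9% of all genes, 13.3% higher and 12.6% lower. Both members passed in the higher direction, where their share of the 15 was close to that of all genes. The difference was 1.00 on the log2 scale for Hist1h1c (SE 0.27, adjusted p 0.015) and 0.98 for Hist3h2a (SE 0.17, adjusted p 0.0011). The value of Hist1h1c did not pass without P7 PAB replicate 1 (0.80, adjusted p 0.091), with the length trend removed (0.73, adjusted p 0.053) or with the Xist class described below as a term (0.95, adjusted p 0.073), while that of Hist3h2a passed in each of these fits. For Hist1h2bc it was 0.61 (SE 0.23, adjusted p 0.064) and for Hist2h2be 0.50 (SE 0.18, adjusted p 0.054), which did not pass. That of Hist1h2bc passed with DESeq2 (adjusted p 0.048), with no filter (0.039), with total counts (0.043) and without P3 PAB replicate 2 (0.018), P7 sham replicate 1 (0.018) or P7 PAB replicate 2 (0.035). That of Hist2h2be passed with total counts (adjusted p 0.033) and without P3 sham replicate 1 (0.021) or P7 sham replicate 1 (0.036).

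Several properties of the libraries moved with the P7 comparison. Xist, the RNA of the inactive X chromosome in female cells, ranged from 630 to 936 CPM over the 3 sham libraries of P7 and reached 1061 CPM in replicate 1 of P3 sham, while the other 7 libraries, both of P7 PAB among them, held 0.303 to 0.873 CPM. With this class as a term, which rests on P3 sham alone to tell class from group, Hist1h1c was still 1.21 higher in P7 PAB (adjusted p 0.028, edgeR) and Hist3h2a 0.77 higher (adjusted p 0.021). Hist1h2bc was 0.53 higher with an adjusted p of 0.23, and Hist1h2ag turned to -0.14. Levels also fell with gene length in P7 PAB hearts, by 0.15 and 0.141 on the log2 scale per doubling of exonic length, where the other 9 libraries had slopes from -0.0291 to 0.0668. With this trend removed, Hist1h1c was 0.97 (adjusted p 9.2e-04) and Hist3h2a 0.75 higher (adjusted p 1.7e-04), while Hist1h2bc was 0.38 higher (adjusted p 0.055) and Hist1h2ag 0.98 higher (adjusted p 0.17).

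Of the markers of other cells, none of the 8 erythroid genes tested was called in P7 PAB against P7 sham hearts, and the summed level of the 10 erythroid genes was 2247 to 3045 CPM in P7 sham and 3413 to 3913 CPM in P7 PAB hearts. Erythroid sums reached 6194 CPM in P3 PAB hearts. Cardiomyocyte markers, none of the 10 at 0, summed to 65951 to 74798 CPM in P7 sham and 59383 to 66520 CPM in P7 PAB hearts, and 1 was called higher and 2 lower in P7 PAB. One of the latter was the myosin gene Myh6, at 34842, 28176 and 32740 CPM in P7 sham and 17887 and 16628 CPM in P7 PAB hearts. Fibroblast markers summed to 6171 to 6223 CPM in P7 sham and 4721 to 5616 CPM in P7 PAB hearts, without overlap, and 2 of 9 were called lower. Endothelial markers summed to 1998 to 2070 CPM and 1954 to 2076 CPM, and 1 of 8 was called higher. Macrophage markers summed to 138 to 196 CPM in P7 sham and 140 to 163 CPM in P7 PAB hearts, with 1 of 9 called lower. T cell and thymus markers summed to at most 3.89 CPM in P7 sham hearts, with Rag2 at 0. The part of these cells in the histone values was not tested.

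The genes that make, process or accompany histones were followed as lists. The DNA replication list holds genes such as the helicase subunit Mcm2, the sliding clamp Pcna and the nucleotide-supplying Rrm2. Of 42 tested, 26 fell and none rose from P3 to P7 in sham hearts, where 5.73% of all genes fell, and 21 fell in PAB hearts, where 8.2% of all genes fell. Their median was -0.64 on the log2 scale in sham and -0.59 in PAB hearts. The largest fall in sham hearts was that of Uhrf1, which keeps DNA methylation after copying, by 1.11 (SE 0.11, adjusted p 4.3e-06, edgeR). Mcm2 went from 112 ± 7.62 to 66.9 ± 5.63 CPM (SD, n = 3 each) and fell by 0.75, and Pcna fell by 0.65. Rrm2 had a log2 difference of -0.50 with an adjusted p of 0.0083, under the fold threshold. The tested histone genes had a median of -0.23 in the same comparison, a value whose sign depended on the setting, with none called lower.

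In P7 PAB against P7 sham hearts, 5 of the 42 DNA replication genes rose and 2 fell, where 9.63% of all genes rose and 8.59% fell, with a median of 0.04. The histone genes had a median of 0.75 there, and of 0.24 without P7 PAB replicate 1. Tyms, which makes thymidylate, rose by 0.82 (SE 0.12, adjusted p 7.9e-05, edgeR), and Rrm2 fell by 0.72 (SE 0.15, adjusted p 0.0013). Rrm2 stood at 99.2, 111 and 79.2 CPM in P7 sham and 64.9 and 52.2 CPM in P7 PAB hearts, without overlap. Pcna was 0.34 higher and Mcm2 -0.29 on the same scale, both with an adjusted p under the threshold but not the fold. At P3 none of the 42 was called.

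**Figure D5:**
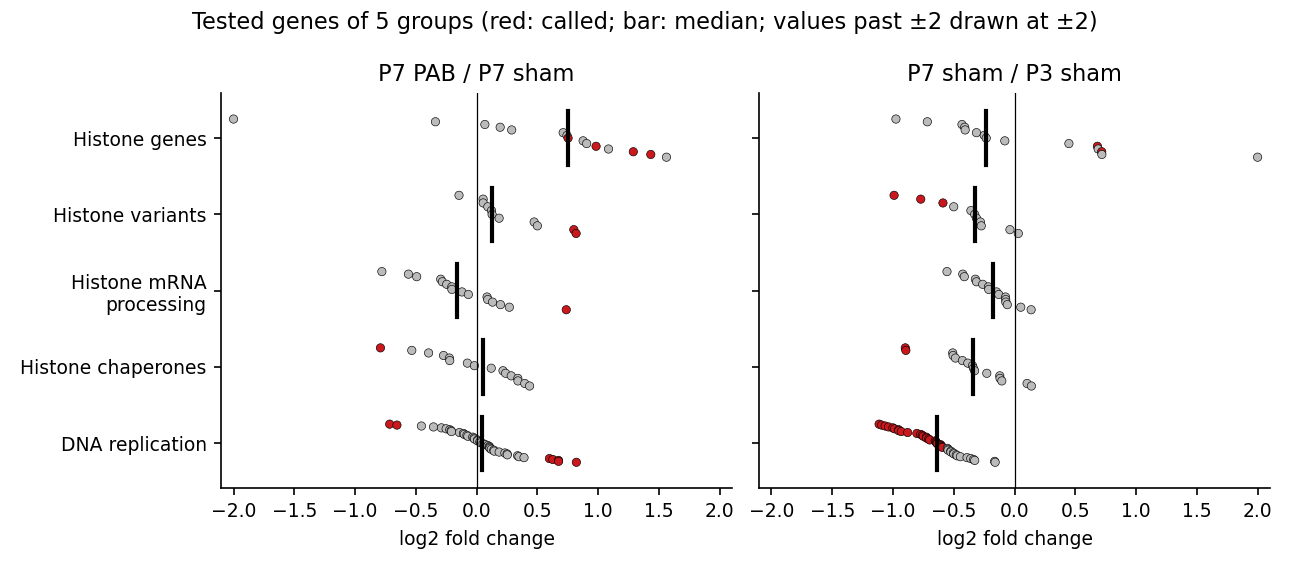
Fitted log2 fold change on the x axis for each tested gene of the histone genes and 4 lists, in P7 PAB against P7 sham (left) and P7 against P3 sham hearts (right), red where called and with the median as a bar. Values past 2 in size, both of Hist2h3c1, are drawn at the edge. The median of the histone genes is 0.75 on the left and -0.23 on the right, and that of DNA replication is 0.04 and -0.64.

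Replication-independent variants are histones that can also be made outside S phase, most of them from RNAs with ordinary poly(A) tails. Of 11 tested, 2 rose and none fell in P7 PAB (9.63% and 8.59% of all genes), and 3 fell with age in sham hearts (5.73% of all genes). H3f3b, which encodes H3.3, stood at 273, 266 and 238 CPM in P7 sham and 463 and 439 CPM in P7 PAB hearts, with no overlap, and rose 1.74-fold (log2 0.80, SE 0.08, adjusted p 2.7e-06, edgeR). H2afz, which encodes H2A.Z, fell by 0.99 with age in sham hearts (adjusted p 2.4e-05) and rose by 0.82 in P7 PAB (SE 0.13, adjusted p 1.4e-04). The interaction passed for both, at 0.75 for H3f3b and 0.87 for H2afz.

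Slbp, the stem-loop binding protein, was read at 35.5, 32.6 and 32.5 CPM in sham and 31.5, 32.3 and 33.1 CPM in PAB hearts at P3, and at 24.8, 25.6 and 24.5 CPM in sham and 29.7 and 24.8 CPM in PAB hearts at P7. It was 0.43 lower on the log2 scale with age in sham hearts, with no overlap, an adjusted p of 6.8e-04 by edgeR and a fold change under the threshold, and P7 PAB and P7 sham overlapped. Of 16 genes of histone mRNA processing, 1 rose in P7 PAB, the U7 particle subunit Lsm10, by 0.74 (SE 0.13, adjusted p 3.2e-04), where 9.63% of all genes rose, and none was called with age in sham hearts. Of 16 histone chaperones, 1 fell in P7 PAB, Atrx, which places H3.3, by 0.79 (SE 0.13, adjusted p 1.7e-04), where 8.59% of all genes fell. With age in sham hearts 2 chaperones fell, where 5.73% of all genes did, led by Chaf1a, a subunit of the factor that loads new histones at the fork, by 0.90 (SE 0.10, adjusted p 1.3e-05).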

How the data were processed

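The authors sequenced RNA of mouse hearts, aligned it to GRCm38 with STAR 2.5.2b (the version is from the submitters' processing notes) and deposited whole counts per gene, 1 column for each of 11 libraries, without normalization. The counting tool, strand setting and poly(A) selection are not given in the sources used here, so antisense and copied genes cannot be told apart. Members and lists were chosen with earlier results of these data known. The test was edgeR 4.0.16 in R 4.3.3 (TMM, filterByExpr, 1 quasi-likelihood fit over the 4 groups, Benjamini-Hochberg adjustment). DESeq2 1.42.0 was an alternative. Named genes were members called in any comparison, the 12 tested members with the highest mean CPM, the extreme members of each comparison, 6 genes of the lists and the called extremes of each list. Other members were named after their values were seen. Exons, transcripts and 100-base windows came from GENCODE M21, and promoters from RefSeq on GRCm38.p6. Python 3.11.15 and matplotlib 3.10.9 made the figures. Libraries held 19274045 to 26820228 counts, and 3 counts equal 0.114 to 0.148 CPM. Replicates differed beyond sampling noise (chi-square per gene 4.27 to 12.6). Same-numbered libraries had correlations of -0.0998 to 0.144 and were not treated as pairs. On simulated data with 200 changed genes among 15562 to 15592, the steps recovered 74.5% (P3) and 75.5% (P7 PAB) with 6 false calls each. Alternatives were other scalings, filters, thresholds and tests, a replicate block, fits of 2 groups, the length trend removed, an Xist class term, thinning to the smallest library and leaving out each library.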

Additional observations from a re-analysis of the deposited data

Results flagged for a closer look

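The PAB effect differed between the ages for 2 of the 15 tested histone genes by the interaction term of edgeR, where 25.9% of all tested genes were called, 13.3% higher and 12.6% lower. For Hist1h1c the effect at P7 minus that at P3 was 1.00 on the log2 scale (SE 0.27, adjusted p 0.015), with both P7 PAB libraries above all others. Over the alternatives it ranged from 0.60 to 1.06 with adjusted p of 0.0035 to 0.073, and without P7 PAB replicate 1 it was 0.80 with an adjusted p of 0.091. For Hist3h2a it was 0.98 (SE 0.17, adjusted p 0.0011), with a range of 0.77 to 1.04 over the alternatives and adjusted p of at most 0.016. At P7 the Xist class of the libraries and the operation move together, so that Hist1h1c and Hist3h2a cannot be compared within 1 class of P7 libraries.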

How the results depend on the processing

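The count of members higher in P7 PAB against P7 sham hearts kept to within 1.5 times of the main count in 20 of 24 alternatives, and that of members higher with age in sham hearts in 12 of 24. An equal count with age did not always mean the same members. With a replicate block Hist1h2be was lost (adjusted p 0.052, edgeR) and Hist2h2aa2 called (0.045). The same exchange occurred in fits of 2 groups (0.069 and 0.0092). In P3 PAB against P3 sham hearts, unadjusted p gave 3 members higher and 1 lower (1.95% of all genes). In P7 PAB against P7 sham hearts, the count of 4 higher became 2 with the length trend removed (6.4% of all genes against 9.63%), 2 with a replicate block and the length trend removed (5.85%) and 2 with the Xist class as a term (7.67%), where Hist1h2ag reversed to -0.14 (adjusted p 0.93). Leaving out 1 library gave 2 to 5 higher, the low without P7 PAB replicate 1 (7.29% of all genes) and the high without P7 PAB replicate 2 (10.4%), and 0 to 1 lower (8.97% without P7 PAB replicate 2). Without P7 PAB replicate 2 the copies Hist2h2aa1 and Hist2h2aa2 were called in opposite directions, at 2.38 and -0.99. In P7 against P3 sham hearts, scaling by total count gave 0 higher and 2 lower, against 2.51% and 18.2% of all genes (Hist1h1c at -0.74 and Hist3h2a at -0.72, where the median of all genes was -0.31), no filter gave 1 lower (3.61%), no fold threshold 1 lower (16.8%), and 1 was higher under the stricter filter (4.78%), DESeq2 (2.79%), the Xist class (3.88%) and thinning to the smallest library (5.46%). Leaving out 1 library gave 0 to 2 higher and 0 lower, with 0 higher without P7 sham replicate 1 and 1 without P3 sham replicate 1 or 3, P3 PAB replicate 1 or 2 or P7 sham replicate 2 or 3. In P7 against P3 PAB hearts, 0 were lower under the stricter filter, DESeq2 and thinning, and 5 were higher without a fold threshold, where 22.3% of all genes were. Leaving out 1 library gave 1 to 4 higher, with 3 without P3 PAB replicate 2 (9.26%) and 4 without P7 PAB replicate 2 (9.67%), and 0 to 1 lower. For the interaction, total counts gave 4 higher (16.3% of all genes), unadjusted p 5 higher (19.4%) and 1 lower (18.5%), no filter 1 lower (6.42%), the length trend 1 higher (10.5%) and the Xist class 1 higher (7.84%). Leaving out 1 library gave 1 to 4 higher, with 1 without P7 PAB replicate 1 (7.98%) and 4 without P7 sham replicate 1 (15.8%) or P7 PAB replicate 2 (12.7%), and 0 to 1 lower, with 1 without P3 PAB replicate 1 (10.1%) or P7 sham replicate 1 (14.5%). The causes were not tested.

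With the replicate block, the interaction had 1 member lower (Hist2h3c1, where 11.9% of all genes were lower), and 1 lower also with the block and the length trend (8.33%). Hist2h3c1 passed the filter only through P3 PAB libraries. The block left Hist1h2ag in P7 PAB at an adjusted p of 0.058 and Hist1h2be with age at 0.052. It is not known whether the numbers pair the samples, so the block is only a description.

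At this depth 55 of the 70 members were too low to test, with at most 12 counts in any library. The cause of their low counts was not tested. All P7 PAB values rest on 2 libraries.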

Other observations

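Within each library, the share of member counts that Hist1h1c held was 33.2% to 33.5% in the 3 P7 sham libraries and 43.5% and 44.4% in the 2 P7 PAB libraries, and it was 39.6% to 50.2% in the 6 P3 libraries. Hist1h2bc held 27.8% to 31.8% in P7 sham and 27.4% and 27.6% in P7 PAB hearts, above the 16.8% to 20.5% of the P3 libraries. Hist3h2a held 10.4% to 11.4% in all P7 libraries and 10.8% to 15.5% at P3. These shares do not depend on the scaling of the libraries, and no test was run on them.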
